A study of Homo sapiens with 8 samples.

Results

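The cytochrome P450 genes were described across all 4 dose groups of a bleomycin experiment in lung-directed human cells. Members were the symbols of the deposited count table made of CYP, a family number, subfamily letters and a gene number, with CYP51A1 set aside. This gave 55 of 46427 symbols, or 0.118%, and all 55 matched a RefSeq gene of GRCh38.p14, 54 of them protein-coding. The exception was CYP2D7, a transcribed pseudogene beside CYP2D6. The rule used names only and no measured value.

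All groups came from H7, an established human embryonic stem cell line labelled wild type. The cells were led through endoderm and foregut stages to lung progenitors in 21 days, reseeded on inserts, kept submerged for 3 days and then grown at an air-liquid interface for 7 days. The labels call the product differentiated type 2 alveolar cells, the cell type that makes lung surfactant. One group was left untreated, and the other groups received 500 µl of bleomycin, a drug that breaks DNA, on the apical side for 24 h at 24, 240 or 480 µg/ml. Each of the 4 groups had 2 libraries. The labels do not say whether these came from separate cultures, so every p-value rests on a spread that could be technical. They also give a bleomycin stock of 10 µg/ml, below every dose. Poly(A) RNA was sequenced, and the series asks about a fibrosis-related expression phenotype in such cells under bleomycin.

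P450 enzymes are heme proteins that insert an oxygen atom from molecular oxygen into a substrate. Many members of families 1 to 3 oxidise drugs, carcinogens and other foreign compounds, mainly in liver and gut. Members of the higher families mostly work on fatty acids, bile acids, steroid hormones, vitamin D and retinoic acid. CYP2U1, a fatty acid enzyme, and CYP2R1, a vitamin D enzyme, are among the exceptions. Enzymes in the endoplasmic reticulum take electrons from the reductase POR, and those in mitochondria take them from FDXR through a ferredoxin. In the lung, CYP1A1 is known as the gene that tobacco smoke induces through the aryl hydrocarbon receptor, and CYP2S1, CYP4B1 and CYP2F1 are known as P450 genes of airway epithelium.

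The sequences just upstream of the transcription start are shown for members of both directions of change at 480 µg/ml, to show the letters behind the motif counts that follow. Each run ends at the last base before the RefSeq start (GRCh38.p14), reads 5′ to 3′ on the gene's strand and holds no transcribed base. Capitals mark 3 motifs on either strand: TATAAA (the TATA box), GGGCGG (the GC box) and GCGTG (the core that the aryl hydrocarbon receptor binds with ARNT). The first 6 genes were lower at 480 µg/ml. CYP1A1 lies on the minus strand at chr15:74725529-74725778, CYP2C19 on the plus strand at chr10:94762561-94762680 and CYP2C8 on the minus strand at chr10:95069498-95069617. CYP2B6 (chr19:40991162-40991281), CYP2S1 (chr19:41192969-41193218) and CYP2W1 (chr7:983061-983180) lie on the plus strand.
CYP1A1: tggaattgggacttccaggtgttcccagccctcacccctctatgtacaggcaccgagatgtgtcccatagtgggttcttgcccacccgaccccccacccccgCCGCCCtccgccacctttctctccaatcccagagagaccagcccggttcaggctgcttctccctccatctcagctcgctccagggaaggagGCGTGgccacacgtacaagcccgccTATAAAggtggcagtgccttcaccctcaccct
CYP2C19: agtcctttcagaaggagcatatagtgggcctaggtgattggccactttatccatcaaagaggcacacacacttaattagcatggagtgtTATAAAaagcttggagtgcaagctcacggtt
CYP2C8: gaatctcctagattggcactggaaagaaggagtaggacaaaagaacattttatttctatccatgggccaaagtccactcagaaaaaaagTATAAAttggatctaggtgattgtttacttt
CYP2B6: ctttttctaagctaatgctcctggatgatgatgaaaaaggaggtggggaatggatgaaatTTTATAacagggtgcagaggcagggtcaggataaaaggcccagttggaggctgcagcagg
CYP2S1: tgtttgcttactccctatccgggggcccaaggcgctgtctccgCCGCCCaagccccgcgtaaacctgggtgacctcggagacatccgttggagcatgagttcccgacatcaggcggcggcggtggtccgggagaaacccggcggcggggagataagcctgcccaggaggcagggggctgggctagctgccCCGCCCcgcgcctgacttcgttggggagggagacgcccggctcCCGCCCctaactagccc
CYP2W1: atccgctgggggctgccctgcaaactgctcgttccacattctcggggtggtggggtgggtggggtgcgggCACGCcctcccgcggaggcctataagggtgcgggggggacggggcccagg
The last 2 genes were higher at 480 µg/ml and lie on the plus strand, CYP2U1 at chr4:107931299-107931548 and CYP4V2 at chr4:186191317-186191566.
CYP2U1: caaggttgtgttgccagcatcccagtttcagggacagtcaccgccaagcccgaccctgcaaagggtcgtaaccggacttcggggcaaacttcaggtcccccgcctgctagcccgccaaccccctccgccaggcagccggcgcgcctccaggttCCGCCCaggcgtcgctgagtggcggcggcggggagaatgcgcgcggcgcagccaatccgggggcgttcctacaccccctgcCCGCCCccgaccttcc
CYP4V2: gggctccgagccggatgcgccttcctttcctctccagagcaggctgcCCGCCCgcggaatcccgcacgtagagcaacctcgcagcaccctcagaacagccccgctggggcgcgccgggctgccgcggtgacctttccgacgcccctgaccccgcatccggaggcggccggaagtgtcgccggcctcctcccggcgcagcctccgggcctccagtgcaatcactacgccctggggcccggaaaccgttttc
In CYP1A1 the capitals run from the GC box, on the other strand at -148 to -143 from the start, through GCGTG at -57 to -53 to TATAAA at -32 to -27. In both CYP2C19 and CYP2C8 the TATA box stood at -31 to -26. CYP2S1 had 3 GC boxes and no TATAAA, and CYP2U1 had 2 GC boxes and no TATAAA.

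Motifs were counted in windows of 250 bases before and 50 after each start. RefSeq windows were used for 38 members (51 windows), against 35116 windows of 27305 genes in the whole table. TATAAA was in 18 member windows (35.3%) and in 11.5% of all windows, and GGGCGG was in 19 member windows (37.3%) and in 45.0% of all. GCGTG was in 12 member windows (23.5%) and in 36.5% of all. Of the genes that fell at 480 µg/ml, 6 had a window, 4 of them with TATAAA and 2 with GGGCGG. Of the genes that rose, 4 had windows, 7 in all, of which 0 held TATAAA and 6 held GGGCGG. The median number of CpG dinucleotides was 6 in the windows of genes that fell, 31 in those of genes that rose and 14 over all windows. None of these matches was tested, and a match is a run of letters and not a shown binding site.

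Total counts ran from 53431773 to 67715984 per library, so a count of 0 allows up to 3 counts, or 0.0439 to 0.0576 CPM (CPM are counts scaled to a common library size with TMM factors), for counting error only. Replicates lay furthest apart at 480 µg/ml (SD of their log2 ratio over genes 0.637, against 0.502 to 0.520 elsewhere). Of the 10 type 2 markers 3 surfactant genes were at or near 0: SFTPC had 0 counts in 6 libraries, 5 in 24 µg/ml replicate 2 and 7 in 480 µg/ml replicate 1, SFTPA1 had at most 2 and SFTPA2 at most 7. SFTPD, also a surfactant gene, had 0 to 16 counts, NAPSA had 6 to 27, NKX2-1 had 15 to 87 and LAMP3 had 54 to 107. The highest counts were 297 to 2137 for SFTPB, 664 to 1985 for ABCA3 and 74 to 888 for SLC34A2. The summed level of the 10 was 31.9 to 56.0 CPM over the libraries. That of 10 hepatic markers, led by AFP, was 40495 to 85362 CPM, and that of 8 intestinal markers was 2197 to 3172 CPM. The P450 values below are therefore those of a culture with hepatic and intestinal transcripts at higher levels than type 2 transcripts. The culture was sequenced in bulk, so fewer cells of a type and less RNA per cell cannot be told apart.

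In untreated cells a few members made up most of the P450 transcripts. Levels between genes are compared in TPM, which is scaled to gene length, as mean ± SD over n = 2 libraries. CYP2S1, an enzyme of airway and gut epithelium with few settled substrates, was highest at 139 ± 2.91 TPM. CYP1A1, which oxidises polycyclic aromatic hydrocarbons, followed at 54.1 ± 11.3 TPM. CYP27A1, the mitochondrial sterol 27-hydroxylase of bile acid synthesis, had 45.9 ± 1.93 TPM, which lay within the spread of CYP1A1. CYP1B1, a relative of CYP1A1 that also hydroxylates oestrogens, had 7.48 ± 0.380 TPM. The drug oxidases CYP3A5 (6.56 ± 0.787 TPM), CYP2C18 (5.92 ± 0.381 TPM) and CYP2C19 (5.70 ± 0.323 TPM) came next, with spreads that touched or overlapped. CYP2R1, the vitamin D 25-hydroxylase, had 3.98 ± 0.449 TPM and CYP2W1, an enzyme of fetal gut and colon tumours, had 3.96 ± 1.12 TPM.

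**Figure D1:**
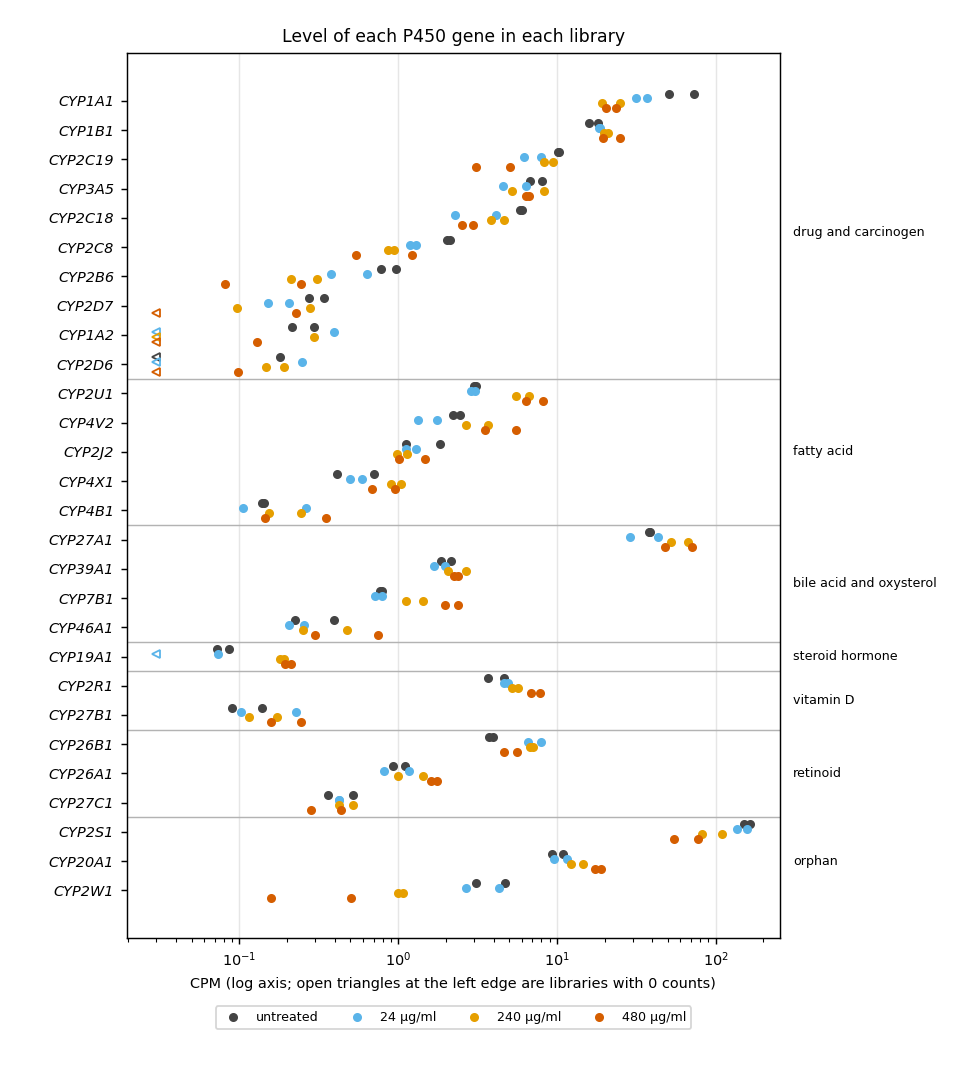
CPM (log axis) of 28 members that passed the filter on low counts, by role, with 1 point per library (grey untreated, blue 24, orange 240, red 480 µg/ml) and open triangles for libraries with 0 counts. Both red points lie left of all others for CYP2S1, CYP2W1 and CYP2C19, and right of all others for CYP7B1, CYP2R1 and CYP20A1.

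The summed level of all 55 members was 300.1 and 282 TPM in untreated cells, 270.0 and 230.4 TPM at 24 µg/ml, 234 and 191 TPM at 240 µg/ml and 185 and 197 TPM at 480 µg/ml. Both untreated libraries thus lay above all 6 treated ones. In summed CPM the margin was narrow, with 317.8 in untreated replicate 2 against 315.5 in 24 µg/ml replicate 1. CYP2S1, CYP1A1 and CYP27A1 together held 82.6% and 81.7% of the TPM sum in untreated cells and 69.8% and 77.4% at 480 µg/ml. The make-up shifted as well, with CYP2S1 and CYP1A1 smaller and CYP27A1 larger at 480 µg/ml. These sums are given as a description with no test.

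**Figure D2:**
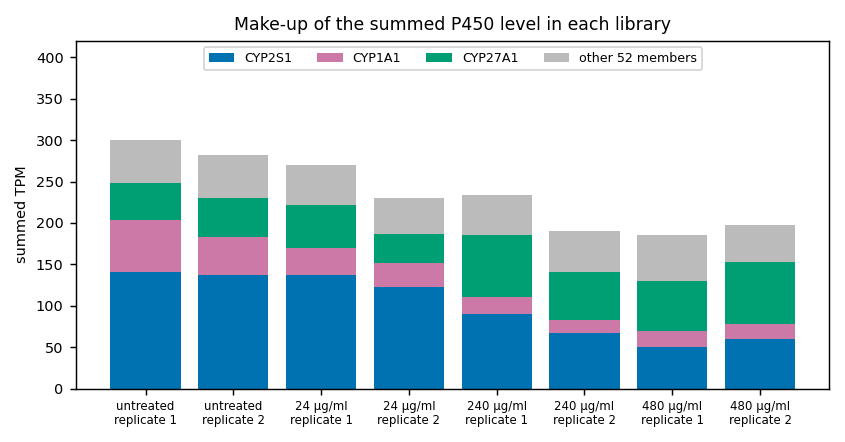
Summed TPM of all members in each library (bars from 0), split into CYP2S1, CYP1A1, CYP27A1 and the other 52 members. The bars stand at 300.1 and 282 TPM in untreated cells and at 185 and 197 TPM at 480 µg/ml.

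Of the 55 members, 29 passed the filter on low counts and 26 did not. Among those 26, 7 had 0 counts in every library: CYP2A7, CYP2F1, CYP4F2, CYP4F8, CYP4F11, CYP4Z1 and CYP26C1. The other 19 had at most 16 counts in any library, the highest being CYP4F22, an enzyme of skin barrier lipids. CYP3A4, the main drug-oxidising P450 of adult liver and gut, had at most 8 counts, and CYP3A7, its fetal liver counterpart, had at most 12. CYP2E1, which oxidises ethanol, had at most 9 counts, and CYP24A1, which degrades vitamin D, had at most 2. CYP7A1, the rate-limiting enzyme of bile acid synthesis, had 0 counts in the untreated and 24 µg/ml libraries, then 2 and 4 at 240 µg/ml, and finally 4 and 6 at the highest dose. These counts stood near the 3 counts that a count of 0 allows, the lower one at 240 µg/ml below it. The steroid-making genes CYP11A1 and CYP17A1 had at most 12 and 13 counts.

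Several members lie side by side in the genome, and clusters are given by which of their members passed the filter on low counts. In the CYP2C cluster (chr10:94683729-95069497) CYP2C18, CYP2C19 and CYP2C8 passed the filter. In the CYP3A cluster (chr7:99648194-99866093) CYP3A5 was the 1 of 4 that passed. In the CYP4F cluster (chr19:15508525-15934867) 0 of 6 passed, and in the cluster with CYP2A, CYP2B, CYP2F and CYP2S genes (chr19:40843541-41207539) 2 of 6 passed, CYP2B6 and CYP2S1. CYP1A1 and CYP1A2 lie 23.316 kb apart on chromosome 15, head to head. CYP1A2, the liver counterpart of CYP1A1, had 12 and 17 counts in untreated cells, 0 and 27 at 24 µg/ml, then 0 and 18 at 240 µg/ml, and finally 0 and 8 at the highest dose. It was thus uncounted in replicate 1 of every treated group. CYP1A2 was not called at any dose (log2 fold change -1.91 ± 1.67, adjusted p = 0.425 at 480 µg/ml by edgeR). Genes of these clusters resemble each other closely, as do CYP2D6 and CYP2D7, so reads may be split between copies and their single values are uncertain.

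The comparison at 24 µg/ml asks which P450 genes the lowest dose moved, and none of the 29 tested members was called. Here and below, errors of log2 fold changes are SE, and a gene is called, or said to rise or fall, at an edgeR adjusted p under 0.05 over 18303 genes. By edgeR 0 members were higher and 0 lower, as for all genes (0% called in each direction), while DESeq2 called 1 higher and 1 lower, and limma on TPM 0 and 0. At unadjusted p under 0.05 there were 1 higher member, against 2.02% of all genes, and 4 lower members, against 1.28%. CYP26B1, an enzyme that degrades retinoic acid, had 3.97 and 3.73 CPM in untreated cells and 6.62 and 7.94 CPM at 24 µg/ml, a log2 fold change of 0.92 ± 0.17 (adjusted p = 0.398). Its groups did not overlap, and DESeq2 called CYP26B1 (adjusted p = 0.0499), with adjusted p from 0.0244 to 1 over the alternatives. CYP1A1 had 72.6 and 50.5 CPM in untreated cells and 37.2 and 31.6 CPM at 24 µg/ml, a log2 fold change of -0.84 ± 0.20 (adjusted p = 0.805). Those groups did not overlap either, and DESeq2 called CYP1A1 (adjusted p = 0.0292), with adjusted p from 0.00602 to 1 over the alternatives.

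CYP2C8, CYP2C18 and CYP2C19, all on the drug and carcinogen list, had both 24 µg/ml libraries below both untreated ones without being called. Their log2 fold changes lay between -0.88 ± 0.27 for CYP2C18 and -0.53 ± 0.23 for CYP2C19, each with adjusted p = 1. Over all members tested, 9 of 29 had both 24 µg/ml libraries below both untreated ones, against 17.8% of all genes, and 3 had both above, against 18.6%. Of the 10 tested members reported here on the drug and carcinogen list, 8 lay below 0. Their median log2 fold change was -0.63, where the median of all genes was 0.01. The 10 include CYP1A2, CYP2D6 and the pseudogene CYP2D7, which had few counts. In 24 µg/ml replicate 2 the summed hepatic markers stood at 40495 CPM, against 59114 CPM in 24 µg/ml replicate 1 and 53980 and 55569 CPM in untreated cells. The part of that library's hepatic level in these values was not tested.

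At 240 µg/ml the same question had 2 members higher, CYP2U1 and CYP26B1, and 2 lower, CYP1A1 and CYP2W1. These are 6.9% of the tested members in each direction, against 5.16% of all genes higher and 5.17% lower, so the members' share was near that of all genes. CYP2U1, a fatty acid hydroxylase, stood at 3.07 and 2.99 CPM in untreated cells and 5.51 and 6.68 CPM at 240 µg/ml (2.01-fold higher, 1.01 ± 0.19, adjusted p = 0.0153). CYP26B1 stood at 6.74 and 7.10 CPM at 240 µg/ml (1.80-fold higher, 0.85 ± 0.17, adjusted p = 0.0196). In both genes the treated libraries lay above the untreated ones. CYP1A1 fell to 25.1 and 19.1 CPM (2.78-fold lower, -1.48 ± 0.21, adjusted p = 0.00549). CYP2W1 fell from 4.73 and 3.11 CPM to 0.999 and 1.08 CPM (3.76-fold lower, -1.91 ± 0.42, adjusted p = 0.0249). The treated libraries of CYP1A1 and CYP2W1 lay below the untreated ones.

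With groups of 2, calls at 240 µg/ml changed when single libraries were left out, which also leaves fewer libraries to estimate the spread. CYP2U1, CYP26B1 and CYP2W1 each lost their call without untreated replicate 1 (adjusted p = 0.113, 0.124 and 0.157), untreated replicate 2 (adjusted p = 0.12, 0.149 and 0.0758), 240 µg/ml replicate 1 (adjusted p = 0.0528, 0.0942 and 0.145) or 240 µg/ml replicate 2 (adjusted p = 0.134, 0.144 and 0.162). CYP1A1 lost its call without untreated replicate 1 (adjusted p = 0.0517) or 240 µg/ml replicate 2 (adjusted p = 0.0731). limma on TPM did not call CYP2U1 or CYP26B1 (adjusted p = 0.113 and 0.11). Leaving out either library of the 480 µg/ml group gave 5 members called lower at 240 µg/ml, with CYP2B6, CYP2C8 and CYP2S1 added.

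CYP2S1 stood on the threshold at 240 µg/ml. It had 166 and 151 CPM in untreated cells and 109 and 81.7 CPM at 240 µg/ml (-0.73 ± 0.20, adjusted p = 0.05 after rounding, not called), with adjusted p from 0.000825 to 0.315 over the alternatives. CYP2C8 had 2.12 and 2.04 CPM and 0.864 and 0.947 CPM (-1.20 ± 0.35, adjusted p = 0.0619). CYP2B6, a drug oxidase, had 0.971 and 0.777 CPM and 0.211 and 0.310 CPM (-1.73 ± 0.52, adjusted p = 0.0682). In all 3 genes the groups did not overlap, yet edgeR did not call them. Over the tested members, 8 had both 240 µg/ml libraries below both untreated ones, against 32.2% of all genes, and 11 had both above, against 33.8%. CYP27A1, with 38.5 and 38.0 CPM in untreated cells and 66.9 and 52.2 CPM at 240 µg/ml (0.64 ± 0.24, adjusted p = 0.123), was among the higher ones.

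At 480 µg/ml 13 of the 29 tested members were called, and the direction differed between the role lists used here. In all, 8 fell (27.6%, against 13.9% of all genes) and 5 rose (17.2%, against 13.9%). Of the 10 tested members reported here on the drug and carcinogen list, 5 fell and 0 rose. Their median log2 fold change was -1.28, where the median of all genes was 0.01. The 10 include genes with few counts: the pseudogene CYP2D7 (0 to 19 in a library), CYP2D6 (0 to 17) and CYP1A2 (0 to 27). Of the 3 orphan enzymes, CYP2S1 and CYP2W1 fell and CYP20A1 rose. Each member was placed on a single role list, also where its enzyme has substrates of several kinds, so the counts by role depend on that placement. The lists were chosen with earlier results of these data known. Drug and carcinogen oxidases can have endogenous substrates too, as CYP1B1 has oestrogens. Of the 15 tested members on the fatty acid, bile acid and oxysterol, steroid hormone, vitamin D and retinoid lists, 4 rose and 0 fell. The 4 were CYP2U1 and CYP4V2 of 5 fatty acid enzymes, CYP7B1 of 4 bile acid and oxysterol enzymes, and CYP2R1 of 2 vitamin D enzymes. The fatty acid enzymes had a median of 0.80, which was the value of CYP4B1 (± 0.69, 7 to 20 counts in a library, not called). The bile acid and oxysterol enzymes had a median of 0.70, which lay between values of genes that were not called. CYP19A1 was the 1 tested member of 6 steroid hormone enzymes and was not called. At 480 µg/ml 11 tested members had both libraries below both untreated ones, against 30.3% of all genes, and 13 had both above, against 31.8%. The medians are given beside that of all genes as a description, and the difference between roles was not tested.

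**Figure D3:**
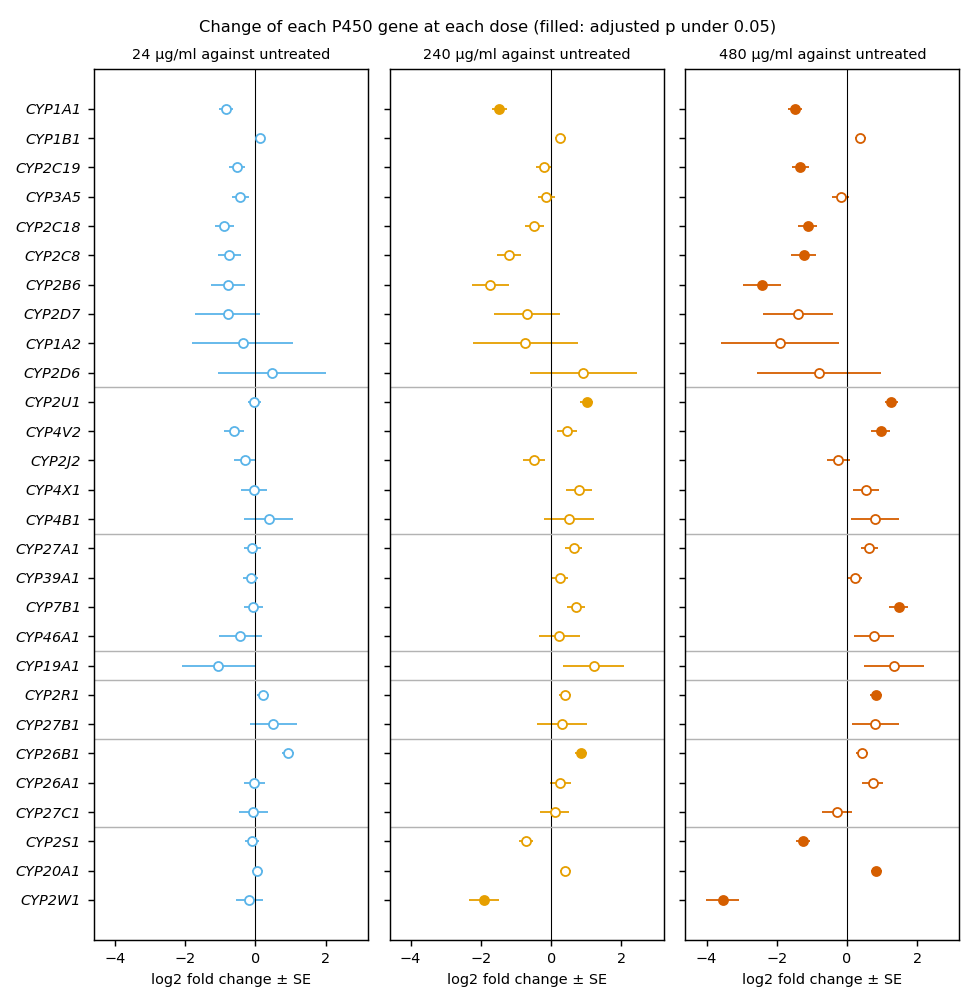
Log2 fold change ± SE of 28 tested members against untreated cells at 24, 240 and 480 µg/ml, grouped by role, with filled points for adjusted p under 0.05. At 480 µg/ml the filled points of the drug and carcinogen oxidases lie between -2.42 and -1.12, and those of the fatty acid, oxysterol and vitamin D enzymes between 0.82 and 1.47.

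CYP2C19, CYP2C18 and CYP2C8 fell at 480 µg/ml. CYP2C19, which oxidises proton pump inhibitors and other drugs, fell from 10.2 and 10.3 CPM to 5.07 and 3.08 CPM (2.52-fold lower, -1.33 ± 0.24, adjusted p = 0.00394). CYP2C18, a close relative with little protein in liver, fell from 5.84 and 6.03 CPM to 2.51 and 2.95 CPM (-1.12 ± 0.27, adjusted p = 0.0152). In both, the 480 µg/ml libraries lay below all other libraries except that CYP2C18 had 2.29 CPM in 24 µg/ml replicate 2. CYP2C8, which oxidises paclitaxel, fell from 2.12 and 2.04 CPM to 0.544 and 1.22 CPM (-1.23 ± 0.35, adjusted p = 0.0293). The 2 libraries of CYP2C8 at 480 µg/ml lay further apart, as a ratio, than those of CYP2C18 and CYP2C19.

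CYP1A1 fell to 20.4 and 23.5 CPM at 480 µg/ml (2.80-fold lower, -1.49 ± 0.21, adjusted p = 0.00137), about where it stood at 240 µg/ml. CYP1B1, which the aryl hydrocarbon receptor also induces, had 18.2 and 15.8 CPM in untreated cells and 24.8 and 19.5 CPM at 480 µg/ml (0.38 ± 0.15, adjusted p = 0.0856, not called). The CYP1 genes thus lay on opposite sides of 0, with CYP1A1 called and CYP1B1 not. CYP2B6 fell to 0.245 and 0.0810 CPM (5.35-fold lower, -2.42 ± 0.55, adjusted p = 0.0117), a level near that of a few counts. CYP3A5, the CYP3A enzyme most known in lung, had 6.73 and 8.01 CPM in untreated cells and 6.63 and 6.40 CPM at 480 µg/ml (-0.18 ± 0.24, adjusted p = 0.618). It came after CYP1A1 and CYP1B1 among the drug and carcinogen oxidases of untreated cells on the TPM scale, and it was not called at any dose.

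CYP2W1 had the lowest log2 fold change of all tested members at 480 µg/ml. It fell from 4.73 and 3.11 CPM to 0.158 and 0.502 CPM (11.7-fold lower, -3.54 ± 0.47, adjusted p = 0.00113), which were 263 and 180 counts against 9 and 31. Without 480 µg/ml replicate 2 the log2 fold change was -4.62 and without 480 µg/ml replicate 1 it was -2.97, and the call stayed in both. CYP2S1, the most abundant member, fell to 54.4 and 78.0 CPM (2.39-fold lower, -1.26 ± 0.20, adjusted p = 0.0025). CYP20A1, an enzyme with no settled substrate, rose from 9.30 and 11.0 CPM to 18.9 and 17.4 CPM (1.78-fold higher, 0.84 ± 0.16, adjusted p = 0.00562). In each of these 3 genes both 480 µg/ml libraries lay on 1 side of every other library.

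CYP7B1, the oxysterol 7-alpha-hydroxylase of the acidic bile acid pathway, had the highest log2 fold change among the called members. It rose from 0.773 and 0.794 CPM to 2.37 and 1.98 CPM (2.77-fold higher, 1.47 ± 0.26, adjusted p = 0.00407). CYP2U1 rose to 8.19 and 6.39 CPM (2.40-fold higher, 1.26 ± 0.19, adjusted p = 0.00181). CYP4V2, a fatty acid hydroxylase mutated in a retinal dystrophy, rose from 2.45 and 2.21 CPM to 5.52 and 3.52 CPM (0.96 ± 0.28, adjusted p = 0.0325). All 3 genes had both 480 µg/ml libraries above both untreated ones. At 24 µg/ml CYP4V2 had 1.75 and 1.33 CPM, below both untreated libraries, and was not called. CYP2R1 rose from 4.64 and 3.70 CPM to 7.84 and 6.86 CPM (0.82 ± 0.17, adjusted p = 0.00883). CYP27B1, which makes active vitamin D, had 5 to 15 counts in any library (0.80 ± 0.67, adjusted p = 0.402).

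**Figure D4:**
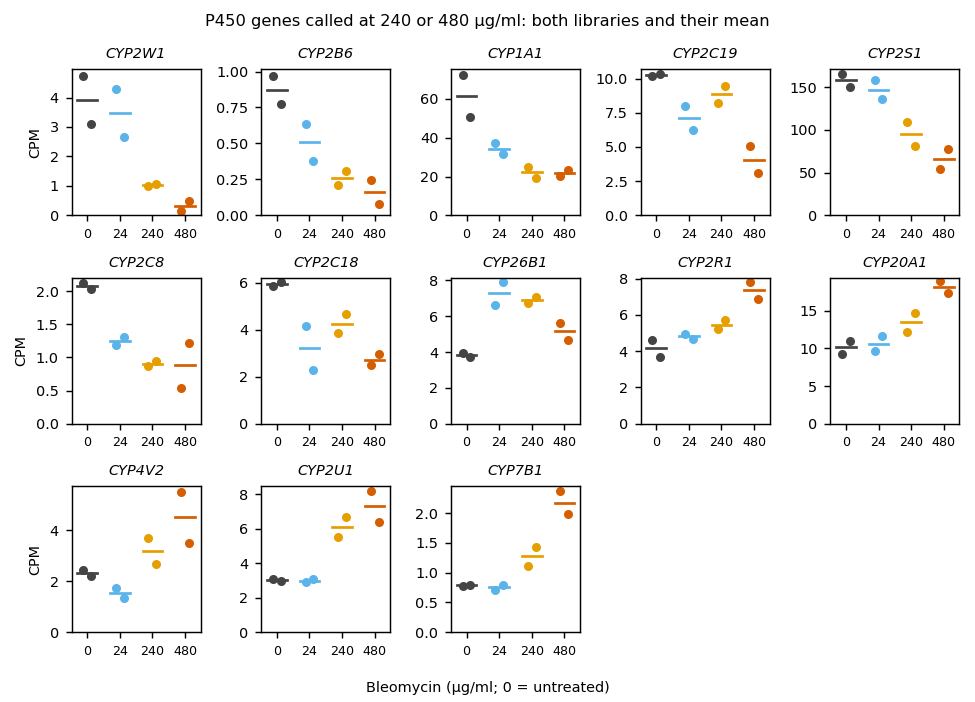
CPM of 13 members called at 240 or 480 µg/ml, by bleomycin dose, with a point per library and a line at the mean of 2 (axes start at 0). The mean of CYP26B1 stands highest at 24 µg/ml, while those of CYP7B1 and CYP2U1 stand highest at 480 µg/ml.

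CYP26B1 was the member called at 240 µg/ml and not at 480 µg/ml. It stood at 3.97 and 3.73 CPM in untreated cells and at 5.65 and 4.67 CPM at 480 µg/ml (0.42 ± 0.17, adjusted p = 0.101), below its level at 24 and 240 µg/ml. The fold change between 480 and 240 µg/ml was -0.43 ± 0.17 (adjusted p = 0.398). CYP26A1, the retinoic acid hydroxylase that retinoic acid induces, had 1.10 and 0.933 CPM in untreated cells and 1.61 and 1.75 CPM at 480 µg/ml (0.73 ± 0.30, adjusted p = 0.0996, not called). CYP27A1 had 47.7 and 71.2 CPM at 480 µg/ml (0.64 ± 0.24, adjusted p = 0.0763, not called). CYP19A1, the aromatase that makes oestrogens, had 4 and 5 counts in untreated cells and 11 and 13 at 480 µg/ml (1.33 ± 0.85, adjusted p = 0.278). CYP4B1, a lung enzyme that activates some toxins, had 0.144 and 0.138 CPM in untreated cells and 0.351 and 0.146 CPM at 480 µg/ml (0.80 ± 0.69, adjusted p = 0.418). Of the 29 tested members 15 were not called in any comparison.

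Several calls at 480 µg/ml changed when single libraries were left out. Without untreated replicate 1, the calls lost included those of CYP2C8 (adjusted p = 0.109), CYP2C18 (0.0645), CYP2B6 (0.0663), CYP20A1 (0.0656) and CYP4V2 (0.117), and 3 members remained called higher. Without untreated replicate 2, they included those of CYP2C8 (adjusted p = 0.0975), CYP2C18 (0.0742), CYP2R1 (0.0916) and CYP4V2 (0.167), and 3 again remained called higher. Without 480 µg/ml replicate 1, CYP2C8 (log2 fold change -0.79, adjusted p = 0.0504) and CYP4V2 (adjusted p = 0.124) lost their calls and CYP27A1 gained one (adjusted p = 0.00902). Without 480 µg/ml replicate 2, CYP1B1 (adjusted p = 0.00792) and CYP26B1 (adjusted p = 0.0395) rose and CYP2B6 and CYP2C8 stood at -1.82 and -1.93. CYP2B6 stood at -3.41 without 480 µg/ml replicate 1. Other analyses that ended a call of these genes were limma on TPM for CYP20A1 (adjusted p = 0.0518) and CYP4V2 (0.0979), and the 2 groups alone for CYP2C8 (0.0819) and CYP4V2 (0.0617). CYP1A1, CYP2C19, CYP2S1, CYP2W1, CYP2U1 and CYP7B1 kept their calls in each alternative run, with adjusted p of at most 0.0127, 0.0280, 0.0224, 0.0090, 0.0226 and 0.0354.

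Between 480 and 240 µg/ml, which asks whether the higher dose went further, no member was called. By edgeR 0 members were higher, against 0.0273% of all genes, and 0 lower, against 0.229%. DESeq2 called 0 higher and 2 lower, limma on TPM 0 and 0, and at unadjusted p under 0.05 there were 3 higher members, against 4.06% of all genes, and 6 lower, against 7.16%. CYP2C19, with 8.24 and 9.44 CPM at 240 µg/ml and 5.07 and 3.08 CPM at 480 µg/ml, had the smallest p (-1.12 ± 0.24, adjusted p = 0.116). CYP2C19 was called without 480 µg/ml replicate 1 (adjusted p = 0.00869), without 480 µg/ml replicate 2 (0.0411) and by DESeq2 (0.00273), with adjusted p from 0.0006 to 0.519 over the alternatives. CYP2W1 (-1.63 ± 0.49, adjusted p = 0.245) was called without 480 µg/ml replicate 2 (0.0304) and by DESeq2 (0.0365), with adjusted p from 0.00375 to 0.693 over the alternatives. CYP2S1 (-0.53 ± 0.20, adjusted p = 0.364) was called without 480 µg/ml replicate 2 (0.0325). CYP1A1 had a difference of -0.01 ± 0.20 between these doses. The dose comparisons with untreated cells share their 2 untreated libraries.

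The genes that serve P450 enzymes were described from 3 lists: 7 electron partners, 7 genes of heme synthesis that are reported here and 20 regulators, of which 18 were tested. FDXR, the mitochondrial reductase and a known p53 target, rose from 7.71 and 7.60 CPM to 47.3 and 45.5 CPM at 240 µg/ml (2.60 ± 0.19, adjusted p = 0.00072) and 50.5 and 76.8 CPM at 480 µg/ml (3.06 ± 0.20, adjusted p = 0.000105). POR, the reductase of the microsomal enzymes, had 75.3 and 64.1 CPM in untreated cells and 56.6 and 78.1 CPM at the highest dose (-0.05 ± 0.16, adjusted p = 0.85). The mitochondrial ferredoxin gene FDX2 rose at 480 µg/ml (0.68 ± 0.22, adjusted p = 0.0498), on the threshold, while FDX1, the ferredoxin of steroid synthesis, was not called (-0.09 ± 0.11, adjusted p = 0.57). Of the 7 electron partners 2 rose and 0 fell at 480 µg/ml, against 13.9% of all genes in each direction. CYB5A, cytochrome b5, was not called (-0.31 ± 0.17, adjusted p = 0.219), but it was called lower without 480 µg/ml replicate 2 (-0.56, adjusted p = 0.0119). FDXR kept its calls at both doses in each alternative run, with adjusted p of at most 0.00238 at 480 µg/ml. The call of FDX2 was lost in 11 of 15 alternatives, without either library of untreated cells (adjusted p = 0.158 and 0.21) and without 480 µg/ml replicate 2 (0.176) among them.

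Of the 7 genes of heme synthesis reported here 3 rose and 0 fell at 480 µg/ml, against 13.9% of all genes in each direction. Their median log2 fold change was 0.55, where the median of all genes was 0.01. UROD (1.04 ± 0.18, adjusted p = 0.00322), UROS (0.66 ± 0.13, adjusted p = 0.00644) and FECH, which inserts the iron (0.71 ± 0.16, adjusted p = 0.0105), rose. ALAS1, the first and rate-limiting enzyme outside red cells, was not called (0.01 ± 0.12, adjusted p = 0.95). At 240 µg/ml UROD was the 1 gene of these 7 that was called (0.79 ± 0.18, adjusted p = 0.0265). There 5.16% of all genes were called higher and 5.17% lower. UROS and FECH lost their calls at 480 µg/ml without untreated replicate 1 (adjusted p = 0.0636 and 0.0912) or untreated replicate 2 (adjusted p = 0.0622 and 0.0600), and by limma on TPM (log2 fold change 0.33, adjusted p = 0.129 and 0.48, adjusted p = 0.0557), while UROD kept its call in each alternative run. UROD lost its call at 240 µg/ml without any 1 library of the untreated, 24 or 240 µg/ml groups (adjusted p from 0.0540 to 0.195).

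Of the 18 tested regulators 1 rose and 3 fell at both 240 µg/ml (against 5.16% and 5.17% of all genes) and 480 µg/ml (against 13.9% in each direction, so near the share of all genes). NR1H4, the bile acid receptor, fell from 7.34 and 5.96 CPM to 2.15 and 0.473 CPM at 240 µg/ml (-2.36 ± 0.51, adjusted p = 0.0247) and 0.526 and 0.713 CPM at 480 µg/ml (-3.42 ± 0.55, adjusted p = 0.00257). Its log2 fold change at 240 µg/ml was -3.81 without replicate 1 of that dose and -1.63 without replicate 2. NR0B2, the repressor that the bile acid receptor induces, fell from 8.47 and 6.79 CPM to 2.47 and 2.38 CPM at 480 µg/ml (-1.65 ± 0.20, adjusted p = 0.000861). PPARA, the fatty acid receptor that induces CYP4A genes, fell too (-1.01 ± 0.19, adjusted p = 0.00573 at 480 µg/ml). These 3 nuclear receptor genes fell at both doses. RARB, a retinoic acid receptor gene that retinoic acid induces, rose from 16.2 and 18.1 CPM to 43.7 and 31.6 CPM at 480 µg/ml (1.14 ± 0.16, adjusted p = 0.00157). These 4 genes kept their calls at 480 µg/ml in each alternative run. At 240 µg/ml limma on TPM did not call PPARA or RARB (adjusted p = 0.0784 and 0.0888). Leaving out untreated replicate 1 ended the 240 µg/ml calls of NR1H4, NR0B2, PPARA and RARB (adjusted p = 0.132, 0.161, 0.189 and 0.144), as did untreated replicate 2 (0.0973, 0.0752, 0.186 and 0.1) and 240 µg/ml replicate 2 (0.0535, 0.172, 0.278 and 0.122). Without 240 µg/ml replicate 1 NR0B2 (adjusted p = 0.0552), PPARA (0.107) and RARB (0.0913) lost theirs, and PPARA also without either 24 µg/ml library (0.0752 in both).

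Receptors that govern the drug oxidases were not called by edgeR over all libraries. AHR, the aryl hydrocarbon receptor, had a log2 fold change of -0.38 ± 0.17 at 480 µg/ml (adjusted p = 0.121), and its target TIPARP one of 0.16 ± 0.18 (adjusted p = 0.536). Without 480 µg/ml replicate 1 AHR was called lower (-0.66, adjusted p = 0.00194) and TIPARP stood at -0.18, while without replicate 2 TIPARP was called higher (0.43, adjusted p = 0.00655). AHRR, the repressor of that receptor, had 0 counts in every library. NR1I2, the pregnane receptor that induces CYP3A and CYP2C genes, had 1.40 and 1.33 CPM in untreated cells and 0.736 and 0.421 CPM at 480 µg/ml (-1.24 ± 0.48, adjusted p = 0.0853). NR1I2 was called lower in 5 of 15 alternatives, with adjusted p from 0.00929 to 0.25. NR1I3, which induces CYP2B6, had at most 5 counts. HNF4A, a liver and gut factor, had 0.37 ± 0.13 (adjusted p = 0.0701), and VDR, the vitamin D receptor, had -1.40 ± 0.39 at 240 µg/ml (adjusted p = 0.0532). HNF4A was called higher in 2 of 15 alternatives and VDR lower in 7 of 15, with adjusted p from 0.0137 to 0.299 and from 0.00423 to 0.254. A call that was missed at this depth and number of libraries does not show equal levels.

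**Figure D5:**
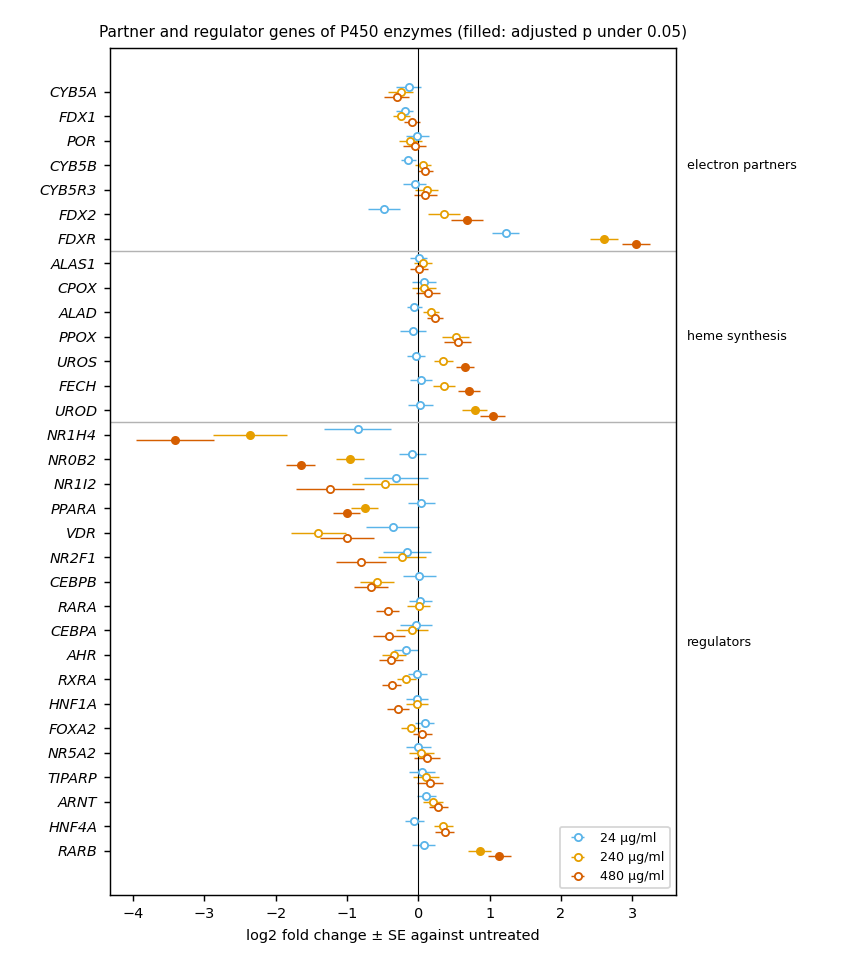
Log2 fold change ± SE against untreated cells of the electron partners, 7 heme synthesis genes and tested regulators at 24, 240 and 480 µg/ml, with filled points for adjusted p under 0.05. FDXR lies furthest right, at 3.06 at 480 µg/ml, and NR1H4 furthest left, at -3.42.

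Markers of other cell types moved beside the P450 genes. At 480 µg/ml 3 of 10 hepatic markers rose and 0 fell, where 13.9% of all genes were called in each direction, and the summed hepatic level was 70552 and 66162 CPM, against 53980 and 55569 CPM in untreated cells. Of 7 tested intestinal markers 3 fell, FABP1, FABP2 and LGALS4, and 1 rose, with a summed level of 3113 and 2693 CPM against 2802 and 2807 CPM. Of 7 mesenchymal markers 5 fell, with a summed level of 489 and 430 CPM against 463 and 501 CPM. Of 7 tested type 2 markers ABCA3 rose and SFTPB, SLC34A2 and NKX2-1 fell, with a summed level of 34.7 and 43.5 CPM against 43.2 and 48.9 CPM. The hepatic sum, mostly AFP, was thus higher. Of the 10 hepatic markers 8 lay above 0 and 2 below, with a median log2 fold change of 0.24. The liver and gut drug oxidases CYP2C8 and CYP2C19, and CYP2B6, also known from liver, were lower. So was CYP2C18, which has little protein in liver. The part of these cell types in the P450 values was not tested.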

How the data were processed

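Poly(A) RNA of 8 libraries was read as tables with 1 value per symbol. The deposited counts are whole numbers with no normalization; the deposited TPM values are scaled to length and a common total, and the deposited FPKM values were a constant multiple of TPM within a library and were not tested. Per the submitters' processing notes the authors used Trimmomatic, HISAT2, Bowtie2 and StringTie with GRCh38. Versions, annotation release and the strand counted are not given in the sources used here, so reads of a gene and an antisense partner cannot be told apart.

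Counts were fitted with edgeR 4.0.16 in R 4.3.3 (TMM factors, quasi-likelihood, group as the only term, all 8 libraries), after filterByExpr (at least 10 counts, 15 in total) left 18303 genes. The common dispersion was 0.0226, a biological coefficient of variation of 0.150. p-values were adjusted by Benjamini-Hochberg over all genes tested, with a threshold of 0.05. SE is the log2 fold change divided by the square root of F. The 4 comparisons set each dose against untreated cells, and 480 against 240 µg/ml. The script was tested on simulated data.

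Alternatives were DESeq2 1.42.0, RLE factors, no filter, a stricter filter (50 counts or more, in 2 or more libraries), the 2 groups alone, a replicate block, limma 3.58.1 on log2(TPM + 1), and leaving out single libraries, where a lone library is assumed to vary like the other groups. They were planned for the P450 members, and added after the data were seen for the partner genes and the P450 genes outside the rule. Values were given for members called in any comparison, a set of 18 known members and, in each comparison, the 4 uncalled members with the smallest p. Members, roles and lists were chosen with earlier results of these data known. Results of 1 member and 1 partner gene are not reported here, and these genes count only in totals over all members or all partner genes. Promoter windows and gene positions are from RefSeq (GRCh38.p14), and 17 members had none that was used.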

Additional observations from a re-analysis of the deposited data

How the results depend on the processing

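No called P450 member or partner gene changed direction under the alternatives run. Of the values of named members under the alternatives, 620 kept their direction and side of the threshold, 41 gained a call, 31 lost one and 5 changed direction without a call. For named partner genes and P450 genes outside the rule these numbers were 347, 17, 65 and 6. The changes of direction were in genes with no call. The difference of CYP1A1 between 480 and 240 µg/ml became 0.00018 with the stricter filter, 0.013 with the replicate block and 0.045 by limma on TPM, and ran from -0.20 to 0.20 when a library was left out. ALAS1 at the highest dose became -0.029 by limma on TPM, and ran from -0.080 to 0.090 when a library was left out. Leaving out a library there gave POR values from -0.30 to 0.15 and TIPARP values from -0.18 to 0.43. The numbers of members called moved as follows. At 24 µg/ml DESeq2 and the fit with no filter on low counts each called 1 higher (CYP26B1) and 1 lower (CYP1A1) in place of 0 and 0, and leaving out a library gave 0 to 0 in both directions. At 240 µg/ml the 2 higher became 0 by limma on TPM and 4 from the 2 groups alone, with 0 to 3 when a library was left out. The 2 lower became 5 with no filter, 5 by limma on TPM and 6 from the 2 groups alone, with 0 to 5 when a library was left out. At 480 µg/ml the 5 higher became 3 by limma on TPM, with 3 to 7 when a library was left out, and the 8 lower ranged from 4 to 9 when a library was left out. Between 480 and 240 µg/ml DESeq2 and the fit with no filter each called 2 lower (CYP2C19 and CYP2W1) in place of 0, with 0 to 3 when a library was left out, and 0 higher in every alternative. For the partner genes (electron partners, heme synthesis and regulators together) the 0 higher at 24 µg/ml became 1, FDXR, by DESeq2, with no filter and from the 2 groups alone, with 0 to 1 when a library was left out, and 0 lower throughout. At 240 µg/ml the 3 higher became 6 from the 2 groups alone (1 to 5 with a library left out), and the 3 lower became 5 with no filter and 7 from the 2 groups alone (0 to 6). At 480 µg/ml the 6 higher became 3 by limma on TPM (3 to 10), and the 4 lower became 7 by DESeq2, 8 with no filter and 9 by limma on TPM (3 to 10). Between the doses the partner genes stayed at 0 and 0 apart from 0 to 2 in each direction with a library left out. The cause of these shifts was not tested. Under the stricter filter 20 of the 29 members were tested.

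The replicate block left each count of P450 members as it was: 0 and 0 at 24 µg/ml, 2 higher and 2 lower at 240 µg/ml, 5 and 8 at 480 µg/ml and 0 and 0 between doses. Deviations of same-numbered libraries correlated between -0.0797 and 0.0449, and the labels do not say that a number marks a shared culture, so the numbers were not taken as pairs. Under the block FDX2 lost its call at 480 µg/ml (adjusted p = 0.0559), as did TBXAS1 at 240 µg/ml (0.0651) and CYP51A1 at 480 µg/ml (0.0564).

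With 2 libraries per group the SEs of members reached 1.77 on the log2 scale, for CYP2D6 at 480 µg/ml. A call needs a difference well above its SE, so differences of that size or somewhat larger could not be shown for that gene. For CYP7B1, also under 1 CPM in untreated cells, the SE there was 0.26.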

Other observations

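P450 genes outside the naming rule are given as values. PTGIS, the P450 that makes prostacyclin, stood at 61.8 and 64.1 CPM in untreated cells and 67.5 and 54.5 CPM in those given 24 µg/ml. The 240 µg/ml libraries had 38.8 and 40.7 CPM, and the 480 µg/ml libraries had 26.0 and 24.5 CPM. It fell at 240 µg/ml (log2 fold change -0.66 ± 0.13, adjusted p = 0.0192) and at 480 µg/ml (-1.32 ± 0.14, adjusted p = 0.000402, edgeR). TBXAS1, the P450 that makes thromboxane, fell as well (-0.98 ± 0.25, adjusted p = 0.0419 and -1.85 ± 0.27, adjusted p = 0.00157). CYP51A1, the P450 of cholesterol synthesis, had 192 and 214 CPM untreated and 163 and 137 CPM at 480 µg/ml (-0.43 ± 0.14, adjusted p = 0.0417). All 3 fell at 480 µg/ml. PTGIS and TBXAS1 kept that call in each alternative run, while CYP51A1 lost it in 10 of 15, without either untreated library (adjusted p = 0.111 and 0.245) and without 480 µg/ml replicate 2 (0.0669) among them. PTGIS and TBXAS1 lost their calls at 240 µg/ml without any 1 library of the untreated or 240 µg/ml groups (adjusted p from 0.126 to 0.146 and from 0.15 to 0.233), and TBXAS1 also by DESeq2 (0.0993).

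CYP7B1 differed between units. Its TPM per CPM, set to 1 over the untreated libraries, was 2.25 and 1.54 in the 480 µg/ml libraries. At 240 µg/ml the ratio was 0.922 and 1.24, while at the lowest dose it was 1.54 and 1.03. Its limma log2 fold change on log2(TPM + 1) at 480 µg/ml was 0.35, against 1.47 from counts, and a pseudocount of 1 is large beside its level.

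The antisense symbol CYP1B1-AS1 had at most 9 counts in a library and CYP2U1-AS1 had 0, below CYP1B1 and CYP2U1 themselves in every library. The read-through symbol CYP3A7-CYP3A51P had at most 16 counts and the pseudogene CYP2B7P at most 15.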
